A study of Mus musculus with 66 samples.

Results

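Interferon-stimulated genes are genes whose transcription rises when a cell receives an interferon signal. The set described here was a list of 40 mouse genes given by symbol. The rule names the genes and sets no threshold on a measured value, but the list was drawn up with earlier results of these data known. All 40 were found among the 30452 genes of the deposited abundance table, each under 1 gene identifier. Abundances came from bulk RNA sequencing of gut sections over a course of dextran sulfate sodium (DSS), which damages the epithelium of the colon when given in drinking water. The animals were 19 wild-type C57Bl/6 mice, purchased at 6 weeks, and no allele or agent other than DSS is named in the labels. Of these, 4 (mice 1 to 4) were uninjured and sampled at day 0. Mice given 3% DSS for 6 days from day 0 were sampled at day 3 (mice 5 to 7, before the 6 days were over), day 6 (8 to 10), day 9 (11 to 13), day 14 (14 to 16) and day 20 (17 to 19). Every mouse gave 1 section each of mid-colon, rectum and anus, and the 9 mice of days 9, 14 and 20 also gave a section labelled as squamous neo-epithelium of the colon. The muscle layer was stripped before RNA was taken. Levels are in TPM (a transcript's share of all transcripts, scaled to a fixed total), a length-adjusted relative abundance, summed over the transcripts of a gene. Some members have near copies or overlap a neighbour (Igtp with Irgm2, Gbp3 with Gbp7, Ifit1 with Ifit3, Oasl1 with Oasl2, and Oas1a and Trim30a with relatives), so the split of reads among these is uncertain.

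Interferons fall into a type I family, a type III (lambda) family and the single type II interferon, gamma. Type I and III receptors activate a complex that includes Stat2 and Irf9 and binds the interferon-stimulated response element, whereas interferon gamma acts mainly at gamma-activated sites and through Irf1. The induced genes include regulators of transcription, sensors of foreign nucleic acid, antiviral effectors, GTPases that attack the vacuoles of intracellular microbes, antigen processing genes and chemokines that draw T cells. In the gut they are known for defence against enteric viruses and for a low tonic activity in healthy mucosa.

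Promoter windows are shown because the members rose together and because many carry the binding core of interferon-activated factors. RefSeq windows of build GRCm38.p6, from 250 bases before to 50 bases after the gene's start, were matched for 31 of the 40 members. Dhx58, Zbp1, Usp18, Mx1, Mx2, Oas2, Rtp4, Parp14 and Iigp1 were not matched. The core of the interferon-stimulated response element, GAAANNGAAA on either strand, lay in the window of 18 of these 31 genes (58.1%), against 3.99% of all 27025 genes with a window. The gamma-activated site, TTCNNNGAA, which reads the same on both strands, lay in 9 of the 31 (29.0%), against 9.55% of all genes. All 7 GTPase genes with a window held the response element core and 4 of them also held a gamma-activated site, while Tap1, Psmb8 and Psmb9 held no response element core. A match is only a run of letters and was not shown to be bound. Each stretch below has 120 bases, 5′ to 3′ on the gene's strand, with matches in capitals. Isg15 (chr4:156200819-156200938, minus strand) holds 3 overlapping response element cores. Ifit1 (chr19:34640769-34640888, plus strand) holds 2 cores, read on the opposite strand, and Gbp2 (chr3:142620543-142620662, plus strand) holds 1 on that strand. Igtp (chr11:58199436-58199555, plus strand) holds 1 site of each kind, and Irf1 (chr11:53769894-53770013, plus strand) holds a gamma-activated site only. These 5 stretches end at the base before the RefSeq start. GENCODE M21 starts Ifit1 at 34640871 and Gbp2 at 142620602, so that the ends of these stretches, and the marked core of Gbp2, lie inside those gene models. The Cxcl10 stretch (chr5:92348983-92349102, minus strand) runs from 213 to 94 bases before the RefSeq start and opens with a response element core. The only overlap between a match of each kind was in Bst2.
Isg15: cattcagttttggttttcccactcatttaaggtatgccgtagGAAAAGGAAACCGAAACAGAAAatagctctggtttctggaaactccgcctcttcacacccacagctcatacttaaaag
Ifit1: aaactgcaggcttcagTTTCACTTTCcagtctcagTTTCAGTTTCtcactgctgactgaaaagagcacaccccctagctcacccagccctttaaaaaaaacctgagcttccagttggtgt
Gbp2: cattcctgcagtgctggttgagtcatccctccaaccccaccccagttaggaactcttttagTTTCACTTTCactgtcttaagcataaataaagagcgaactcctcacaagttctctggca
Igtp: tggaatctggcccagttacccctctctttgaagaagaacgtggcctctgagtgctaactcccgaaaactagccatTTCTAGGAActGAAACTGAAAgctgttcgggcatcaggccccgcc
Irf1: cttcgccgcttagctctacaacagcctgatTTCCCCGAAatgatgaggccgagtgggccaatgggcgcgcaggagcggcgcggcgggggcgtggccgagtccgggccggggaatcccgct
Cxcl10: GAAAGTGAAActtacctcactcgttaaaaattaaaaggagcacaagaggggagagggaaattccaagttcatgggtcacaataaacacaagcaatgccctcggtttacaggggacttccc

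The labelled tissues carried their defining markers. The summed level of 8 squamous keratinocyte markers was 10051 to 33557 TPM in anus and neo-epithelium and at most 23.5 TPM in mid-colon, and 8 colonocyte markers summed to 5250.3 TPM or more in every mid-colon and rectal sample. The sections were not free of other tissue. Colonocyte sums reached 6126 TPM in neo-epithelium (day 20) and 5468 TPM in anus (day 3). The squamous sum reached 992 TPM in rectum, at day 14. Anal sections also held skeletal muscle transcripts. Between 11268 and 13789 genes reached 1 TPM in a sample, and the table holds no read counts, so depth is unknown and no counting error can be given. In bulk tissue, fewer cells of a type and less RNA per cell cannot be told apart. From day 9 on, mice of the same day differed widely in the members, and several calls rest on single mice. In rectum, mouse 11 at day 9, mouse 14 at day 14 and mice 17 and 19 at day 20 had a lower mean over the members than the other mice of their day, whereas in mid-colon mouse 13 was the lowest of day 9, and values without single mice are given where they change a call.

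Before injury the members spanned a wide range of levels. In the day 0 rectum the most abundant was Irf1, a transcription factor of the interferon gamma response, at 113 ± 13.4 TPM (SD, n = 4). It was followed by Irf7, the main amplifier of type I interferon genes, at 51.8 ± 8.62 TPM and by the oligoadenylate synthetase Oas1a at 42.7 ± 4.17 TPM. At the other end, the chemokine Cxcl9 was at 0.168 ± 0.0655 TPM and Oas2 at 0.141 ± 0.056 TPM. Mid-colon had the same 5 leading genes in the same order (Irf1, Irf7, Oas1a, Oasl1 and Ifih1), the neighbours Irf7 and Oas1a lying within their spread in both sections. Differences between genes were tested with limma on log2(TPM + 1), with Benjamini-Hochberg adjustment over all genes tested and a call at adjusted p under 0.05. Rectum and mid-colon differed in 1 of 31 members tested, against 0.274% of all genes lower: Zbp1, a sensor of Z-form nucleic acid, was lower in rectum by 0.57 ± 0.1 (log2 difference ± SE, adjusted p = 0.0315), a call lost without any 1 of mice 1, 2 and 3.

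Uninjured anus differed from rectum in 16 of 32 members tested, 8 higher and 8 lower, a share below the 60.3% of all genes called between these tissues (25.9% higher, 34.4% lower). Among the 29 that passed the filter in rectum, 5 were higher and 8 lower. Usp18, Iigp1 and Cxcl10 entered the test only through their levels in anus. Both groups held antiviral effectors. In the higher group, Usp18, the protease that removes Isg15 from its targets, was at 7.54, 5.83, 6.55 and 4.54 TPM in anus and 1.3, 0.419, 0.423 and 1.25 TPM in rectum (log2 difference 1.97 ± 0.23, adjusted p = 6.39e-05). The ubiquitin-like modifier Isg15 was at 46.9, 14.9, 11.6 and 7.79 TPM in anus and 5.78, 1.44, 3.63 and 4.72 TPM in rectum (1.9 ± 0.5, adjusted p = 0.00787). Neither gene overlapped between the tissues, and Isg15 in mouse 1 stood well above the other anal samples. The other higher members were Ifit2, Ifit3, Bst2 (tetherin, which holds virus particles at the cell surface), Iigp1, Tap1 and Cxcl10. The lower group held Irf1 (log2 difference -1.8 ± 0.21), Irf7 (-0.97 ± 0.26), the RNA sensor Ifih1 (-1.67 ± 0.19), Oas1a, Oasl1, Cmpk2, Parp14 and Irgm1. Irf1 was at 27.9, 33.5, 22.6 and 47.3 TPM in anus against 101, 103, 126 and 124 TPM in rectum, with no overlap. Ifit1 (0.73 ± 0.37), Gbp2 (-0.26 ± 0.28) and Psmb9 (0.07 ± 0.27) were not called. With the mouse as a block, Cmpk2 was not called (adjusted p = 0.066), and Xaf1, Gbp3 and Igtp were also higher and Trim30a also lower in anus.

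**Figure D1:**
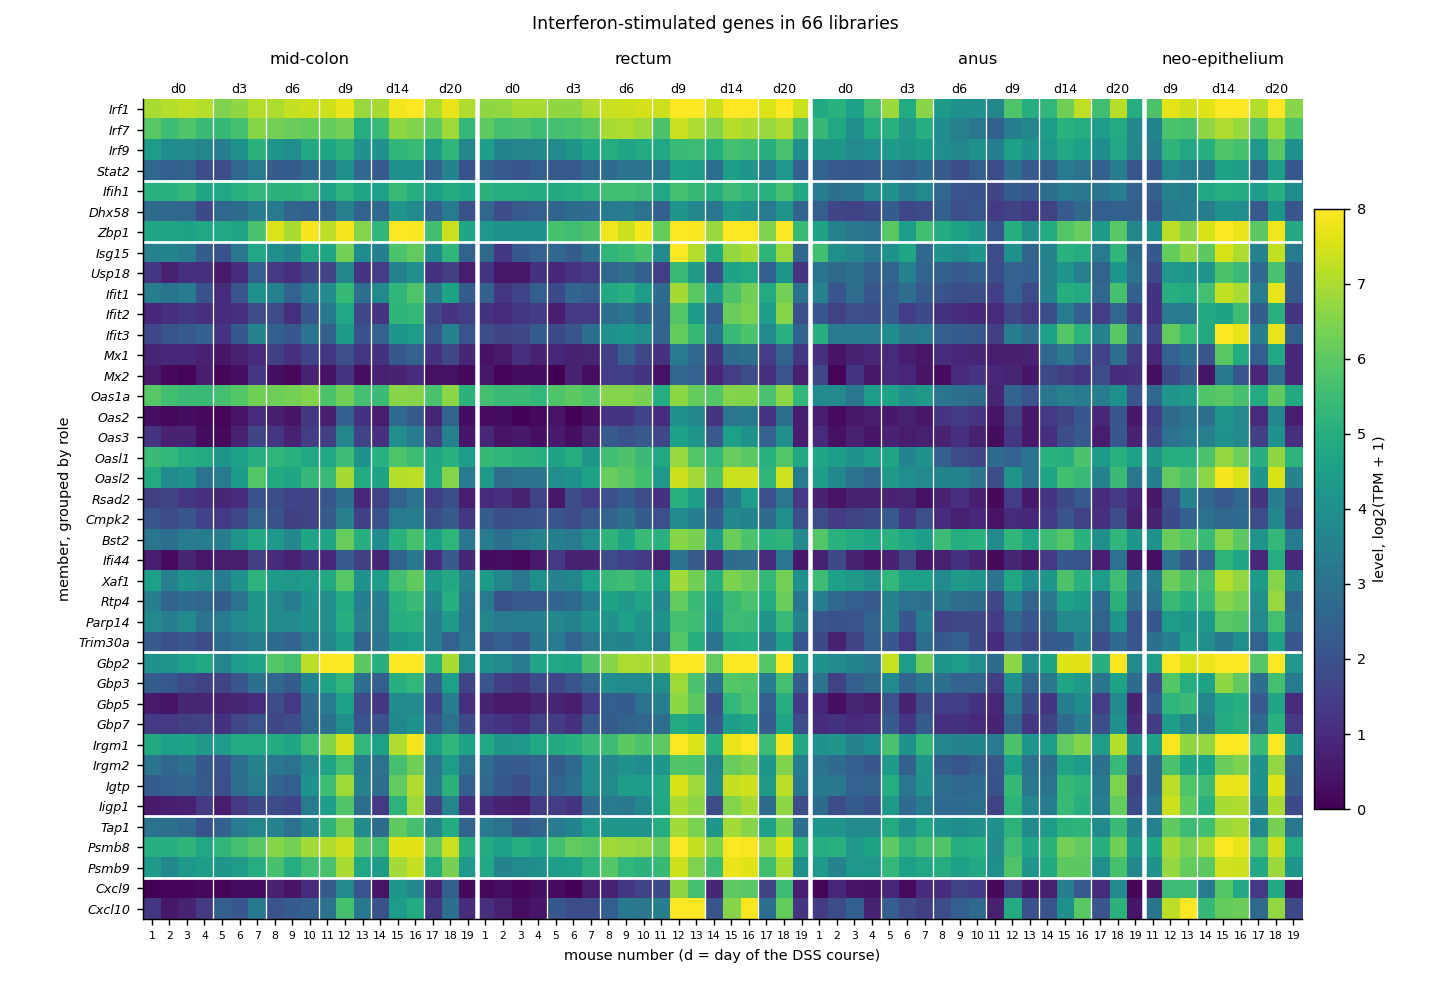
Level of each of the 40 members as log2(TPM + 1), in colour, in each of the 66 libraries. Columns are mice ordered by section and day (d), and rows are members grouped by role, with white lines between groups. All 3 rectal samples of day 6 are brighter than those of day 0, and in the rectum the brightest columns of days 9, 14 and 20 belong to mice 12 and 13, 15 and 16, and 18.

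In the rectum the members rose by day 6, the last day of DSS. All later days of a section are compared with the same 4 uninjured mice. Of the 39 members tested, 39 were higher and 0 lower, where 11.5% of all genes tested were higher and 37.2% lower. The filter can admit a member through its day 6 level alone, and 29 of the 39 had already reached it at day 0. The median difference over the 39 was 1.38 on the log2 scale, beside -0.27 over all genes tested. No member, including the untested Cxcl9, overlapped between the 4 uninjured and the 3 day 6 samples, where 12.4% of all genes lay wholly above their day 0 range. Ratios of mean TPM ran from 1.32 for Oasl1 to 12.7 for Zbp1. Leaving out any 1 mouse left 37 to 39 members called, where 9.34% to 12.0% of all genes were higher.

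All 4 regulators rose in the day 6 rectum, by 0.58 ± 0.11 for Irf1 to 1.22 ± 0.13 for Irf7. Irf7 was at 63.9, 48.9, 50.7 and 43.6 TPM at day 0 and 123, 127 and 112 TPM at day 6 (adjusted p = 0.000429). Among the 3 sensors, Zbp1 had the largest rise of any member, from 18.1, 16.2, 16.2 and 15.4 TPM to 226, 164 and 237 TPM (3.57 ± 0.14, adjusted p = 6.39e-06). Ifih1 rose by 0.53 ± 0.1 and Dhx58, its relative that lacks the signalling domain, by 0.94 ± 0.19. The 3 sensors thus rose by unequal amounts.

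All 20 antiviral effectors rose at day 6. Isg15 went from 5.78, 1.44, 3.63 and 4.72 TPM to 37.7, 41.2 and 49.6 TPM (3.25 ± 0.31, adjusted p = 0.000275). Ifit1, which binds foreign RNA at its cap, went from 4.45, 1.39, 2.08 and 4.39 TPM to 27.7, 32.3 and 20.0 TPM (2.83 ± 0.31, adjusted p = 0.000458). The 3 day 6 mice lay close together in both genes and far above all day 0 mice. Oasl2, an oligoadenylate synthetase relative, rose by 2.57 ± 0.34 and Rtp4 by 2.06 ± 0.3. The smallest rises were in Oasl1 (0.39 ± 0.12) and in Cmpk2, a mitochondrial nucleotide kinase (0.54 ± 0.18). Low genes such as Oas2, at 0.165, 0.198, 0.0667 and 0.133 TPM at day 0 and 1.36, 1.35 and 2.07 TPM at day 6, have differences that the added 1 TPM makes smaller. Mx1, which carries an inactivating deletion in C57BL/6 mice, reached 1.89, 4.52 and 2.25 TPM.

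All 8 GTPases, all 3 antigen processing genes and Cxcl10 rose as well. Gbp2, a guanylate-binding protein, went from 15.9, 12.7, 9.11 and 24.3 TPM to 92.6, 128 and 125 TPM (2.88 ± 0.28, adjusted p = 0.000275). Psmb9, a catalytic subunit of the immunoproteasome, went from 26.2, 11.0, 12.9 and 15.0 TPM to 58.5, 38.4 and 34.5 TPM (1.41 ± 0.29, adjusted p = 0.00525). Its partner subunit Psmb8 rose more, by 1.98 ± 0.12. Cxcl9 stayed low, at 0.728, 1.45 and 1.94 TPM, and did not enter the test. Beside these rises, 6 neutrophil markers summed to 2040.1, 2525 and 6169 TPM in the day 6 rectum against 606 to 737 TPM at day 0, and 8 macrophage and monocyte markers to 366, 317 and 785 TPM against 97.4 to 113 TPM. All 6 neutrophil markers and 7 of 8 macrophage markers were called higher, and 1 of 4 T cell markers tested was. Whether these cells carry the members' transcripts was not tested.

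In the rectum at day 3, while DSS was still given, 4 members had already risen of 33 tested (1.5% of all genes tested were higher): Zbp1, Oas1a, Psmb8 and Cxcl10. Of the 29 that passed the filter at day 0, 3 were higher, since Cxcl10 entered the test only through its day 3 level. Zbp1 was at 50.0, 46.0 and 54.0 TPM at day 3 (1.54 ± 0.1, adjusted p = 0.000145), and the T cell attractant Cxcl10 was at 3.57, 2.7 and 2.67 TPM against 1.11, 0.62, 0.261 and 0.41 TPM at day 0 (1.33 ± 0.2, adjusted p = 0.00483). Neither overlapped with day 0. Isg15 (5.31, 4.17 and 6.66 TPM), Irf7 (49.2, 50.9 and 58.8 TPM), Ifit1 (2.5, 5.06 and 4.35 TPM) and Psmb9 (21.2, 21.7 and 34.9 TPM) overlapped with day 0 and were not called. Gbp2, at 26.4, 24.5 and 54.0 TPM, lay just above its day 0 range and was not called (adjusted p = 0.0972).

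At day 9 in the rectum 34 of 38 members tested were higher and 0 lower, against 33.5% of all genes tested called higher, and 25 of the 29 that passed the filter at day 0 were among the called. The median over the 38 rose to 2.71, beside 0.13 over all genes tested. Cxcl10 had the largest rise. It was at 9.68, 383 and 369 TPM in mice 11, 12 and 13 (6.19 ± 1.11, adjusted p = 0.0016) and Cxcl9 at 2.41, 101 and 48.3 TPM against 0.122, 0.224, 0.102 and 0.225 TPM at day 0 (4.46 ± 0.96, adjusted p = 0.00425). Neither overlapped with day 0, and mouse 11 was far below mice 12 and 13 in both. Both genes entered the test only through their day 9 levels.

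All 8 GTPases were higher, with a median difference of 3.95. Gbp2 was at 121, 989 and 419 TPM (4.57 ± 0.62, adjusted p = 0.000344), and Iigp1, an immunity-related GTPase, at 26.9, 125 and 96.1 TPM against 1.06, 0.654, 0.603 and 1.66 TPM at day 0 (5.16 ± 0.47, adjusted p = 3.94e-05). Isg15 was at 13.0, 281 and 133 TPM (4.14 ± 0.89, adjusted p = 0.00418). In each of these genes even the lowest mouse lay above all day 0 mice, yet it lay several-fold below the other mice of day 9. Iigp1 entered the test only through its day 9 level. Ifit1 was at 6.0, 119.8 and 61.1 TPM (3.29 ± 0.85, adjusted p = 0.0102) and Psmb9 at 40, 168 and 86.9 TPM (2.37 ± 0.45, adjusted p = 0.00225). Irf7 was at 52.2, 163 and 129 TPM, so that mouse 11 fell within the day 0 range (1.0 ± 0.34, adjusted p = 0.0365). The 4 members not called were Ifih1, Oas1a, Oasl1 and Cmpk2. Ifih1, Oas1a and Oasl1 were among the 5 most abundant members at day 0.

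At day 14 in the rectum 36 of 38 members tested were higher, against 6.31% of all genes tested, with a median of 2.6 beside -0.02 over all genes. Of the 29 that passed the filter at day 0, 27 were higher. In these samples 4 of 5 T cell markers tested, all 4 NK and cytotoxic markers tested, 5 of 6 neutrophil and 3 of 8 macrophage markers were higher, and 4 of 8 colonocyte markers were lower. The 6 NK and cytotoxic genes listed summed to only 1.19 to 2.08 TPM at day 0. Most of those tested thus entered only through their day 14 levels. The part of all these markers in the rise was not tested. Cxcl10 had the largest called rise (3.18, 93.2 and 239 TPM in mice 14, 15 and 16, 4.86 ± 1.19, adjusted p = 0.0345). It entered the test only through its day 14 level. Isg15 was at 28, 105 and 124 TPM (3.99 ± 0.55, adjusted p = 0.00819), and Ifit1 was at 18.9, 53.2 and 75.5 TPM (3.5 ± 0.49, adjusted p = 0.00853). Gbp2 was at 67.1, 659.7 and 621 TPM (4.28 ± 0.77, adjusted p = 0.0157). The 3 genes stayed clear of their day 0 range in every mouse, with mouse 14 lowest in each. Irf7 was at 90.3, 140.2 and 123 TPM, Psmb9 at 44.2, 216 and 193 TPM, and Cxcl9, not tested, at 0.8, 63.9 and 60.5 TPM. The count rests on few mice. It was 40 without mouse 14, where 24.0% of all genes were higher, and 7 without mouse 16 (1.33% of all genes higher). It was 10 to 18 without any 1 of the other 5 (1.67% to 2.83%).

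At day 20 in the rectum 3 of 35 members tested were higher (2.79% of all genes): Zbp1, Ifit1 and Bst2. Zbp1 was at 86.0, 315 and 41.3 TPM in mice 17, 18 and 19 (2.59 ± 0.56, adjusted p = 0.0361), and Ifit1 was at 28.7, 79.7 and 7.04 TPM (2.81 ± 0.69, adjusted p = 0.0476). All of these lay above day 0. Isg15 (35.5, 107 and 5.25 TPM), Irf7 (108, 132 and 52.2 TPM), Gbp2 (58.6, 451 and 21.2 TPM), Psmb9 (46.7, 123 and 15.3 TPM) and Cxcl9 (1.97, 44.9 and 0.599 TPM) were high in mouse 18 and near day 0 in mouse 19. The unadjusted p was under 0.05 for 30 of the 35, and no share of all genes at that p is given. Without mouse 19 the count was 35 of 39, where 11.5% of all genes were higher. Without mouse 18 it was 1 (0.773% of all genes higher), and without any 1 of the other 5 mice it was 0 (0.223% to 1.06%).

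**Figure D2:**
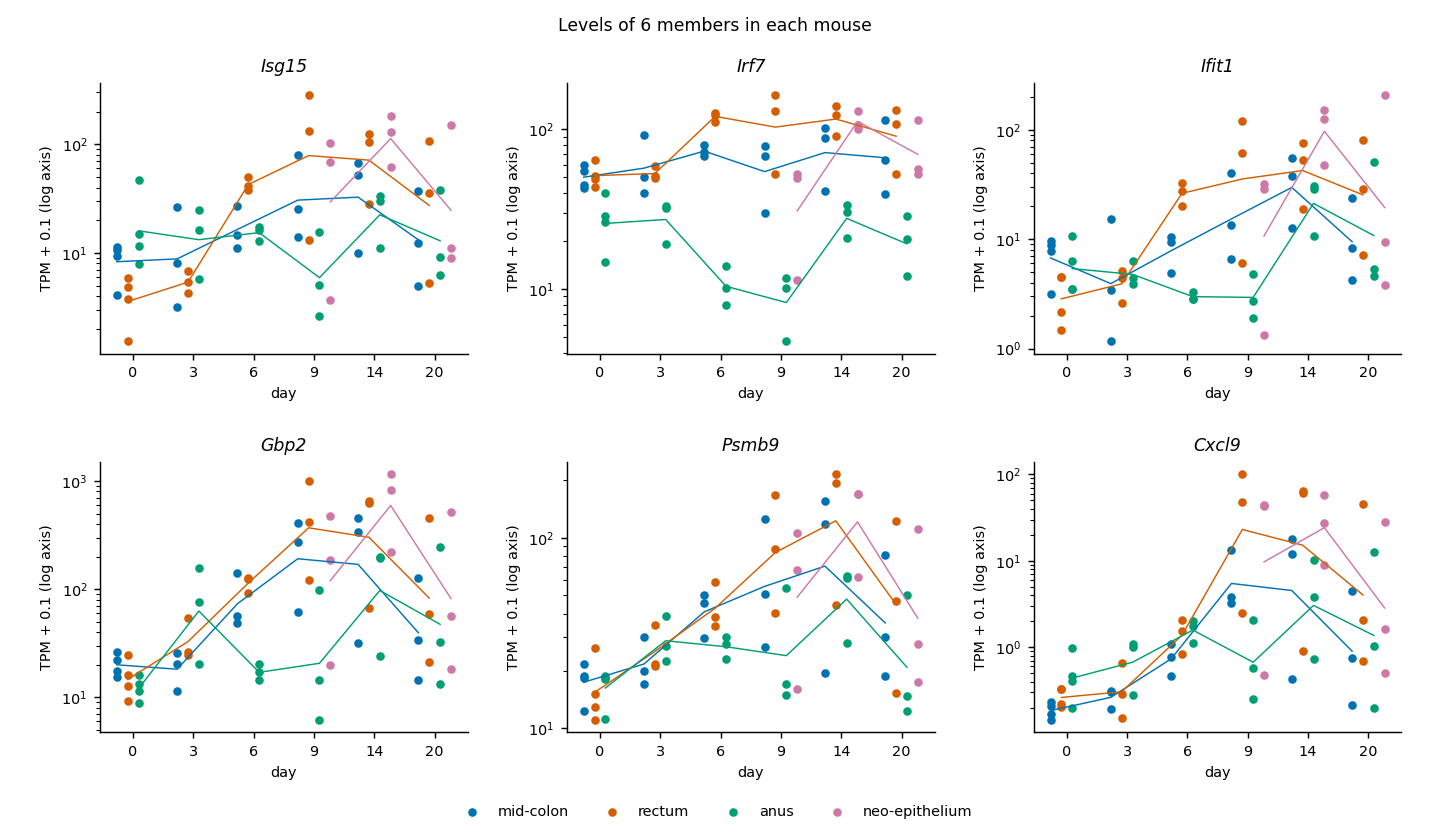
TPM plus 0.1 on a log axis for 6 members against day, with 1 point per mouse, coloured by section, and lines through the geometric means. Rectal Isg15 rises from at most 5.78 TPM at day 0 to at least 37.7 TPM at day 6, and rectal Gbp2 spreads from 121 to 989 TPM within day 9.

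In mid-colon fewer members were called than in rectum at each day. At day 3, 0 of 33 members and 0.375% of all genes were called by limma. An unadjusted p under 0.05 was found for 5 members, with no share of all genes at that p to set beside it. At day 6, 13 of 36 were higher and 0 lower (4.93% of all genes higher). Of the 31 that passed the filter at day 0, 9 were higher, and Mx1, Gbp5, Iigp1 and Cxcl10 entered the test only through their day 6 levels. The 13 were led by Zbp1 at 189, 125 and 236 TPM against 25.2, 24.3, 23.7 and 26.4 TPM at day 0 (2.79 ± 0.2, adjusted p = 0.000158), Gbp2 at 56.4, 48.9 and 142 TPM against 15.4, 17.5, 22.1 and 26.4 TPM (1.83 ± 0.34, adjusted p = 0.00998) and Psmb8 (1.6 ± 0.17). Psmb9 was at 49.8, 29.9 and 45.6 TPM against 18.7, 12.3, 18.3 and 21.6 TPM (1.18 ± 0.23, adjusted p = 0.0115). None of these overlapped with day 0. Irf7, at 79.3, 72.1 and 68.1 TPM against 59.9, 44.9, 54.5 and 43.1 TPM, also rose (0.53 ± 0.15, adjusted p = 0.0441). Isg15 (14.6, 11.1 and 27 TPM against 10.6, 11.3, 9.32 and 4.04 TPM) and Ifit1 (10.4, 4.82 and 9.26 TPM against 9.51, 7.66, 8.68 and 3.06 TPM) overlapped with day 0 and were not called. Without mouse 10 the count was 4 (2.32% of all genes higher), without mouse 2 it was 6 (3.28%), and without mouse 3 or mouse 8 it was 8 (3.73% and 3.37%).

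At day 9, 23 of 37 members were higher in mid-colon and 0 lower (26.5% of all genes higher), including all 8 GTPases, all 3 antigen processing genes and both chemokines. Of the 31 that passed the filter at day 0, 17 were higher, and Mx1, Oas3, Gbp5, Iigp1, Cxcl9 and Cxcl10 entered the test only through their day 9 levels. Iigp1 had the largest rise, from 0.48, 0.6, 0.646 and 1.51 TPM to 21.1, 55.6 and 6.44 TPM (3.57 ± 0.54, adjusted p = 0.000544). Gbp2 was at 276, 409 and 61.8 TPM (3.2 ± 0.52, adjusted p = 0.000806), Cxcl9 at 3.74, 13.2 and 3.11 TPM (2.58 ± 0.37, adjusted p = 0.000358) and Psmb9 at 50.8, 126 and 26.6 TPM (1.62 ± 0.42, adjusted p = 0.0106). Each was above its day 0 range in all 3 mice. Isg15 rose (25.4, 80.0 and 14.0 TPM, 1.77 ± 0.51, adjusted p = 0.0171), whereas Irf7 (67.8, 78.6 and 30.1 TPM) and Ifit1 (13.5, 40.4 and 6.45 TPM) overlapped with day 0 and were not called. Among the 17 antiviral effectors tested 8 were called, and of the 4 regulators only Irf9. In the same samples colonocyte markers summed to 7134, 5756 and 6771 TPM against 13030.0 to 15764 TPM at day 0, with 6 of 8 lower, and macrophage markers to 245, 259 and 166 TPM against 66.3 to 82.7 TPM, with 7 of 8 higher. Both NK and cytotoxic markers tested were higher. All 6 on that list summed to only 0.668 to 1.35 TPM at day 0, so both entered the test only through their day 9 levels. The part of the colonocyte, macrophage and NK markers in the rise was not tested.

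At day 14, 4 of 36 members were higher in mid-colon (2.55% of all genes), namely Bst2, Trim30a, Psmb8 and Cxcl10. An unadjusted p under 0.05 was found for 30, again without a share of all genes at that p. Cxcl10 entered the test only through its day 14 level. Cxcl10 was at 2.98, 19.8 and 29.1 TPM in mice 14 to 16 against 1.45, 0.433, 0.734 and 1.57 TPM at day 0 (2.77 ± 0.6, adjusted p = 0.0377). In mouse 14 Isg15 (9.9 TPM), Irf7 (40.9 TPM) and Psmb9 (19.4 TPM) were within or below the day 0 range, while mice 15 and 16 had 51.9 and 66.7 TPM of Isg15, 101 and 88.0 TPM of Irf7, and 118 and 156 TPM of Psmb9. Gbp2 was at 31.9, 336 and 452 TPM (adjusted p = 0.0601) and Ifit1 at 12.5, 37.7 and 54.8 TPM (adjusted p = 0.0556), above day 0 in all mice but not called. Without mouse 14, 37 of 39 were called, where 7.37% of all genes were higher. Without any 1 of mice 2, 3, 15 or 16 the count was 0 (0.436% to 0.941% of all genes higher). With trimmed mean scaling it was 16. At day 20, 0 of 35 members and 1.56% of all genes were called by limma. An unadjusted p under 0.05 was found for 11 members, without a share of all genes at that p. Without mouse 19 the count called was 5, where 2.98% of all genes were higher.

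Whether rectum and mid-colon responded differently was tested as an interaction. At day 6 the response was larger in rectum by a median of 0.76 over 39 members, and limma called 0 of 39 members and 0.0% of all genes. An unadjusted p under 0.05 was found for 25 members, without a share of all genes at that p. The largest gaps were in Ifit1 (2.64 ± 0.52, adjusted p = 0.125) and Isg15 (2.34 ± 0.53, adjusted p = 0.194). With the mouse as a block 6 were called higher in rectum (Irf7, Zbp1, Usp18, Ifit3, Oas3 and Rtp4, adjusted p = 0.032 to 0.048), where 0.501% of all genes were. At day 9 the median gap was 1.01, and limma called 0 of 40 with or without the block (6.55% of all genes called without it). An unadjusted p under 0.05 was found for 4 members, without a share of all genes at that p. Without mouse 11 the count called was 13 of 40, where 8.37% of all genes were called.

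The anus took another course. At day 3 limma called 0 of 33 members and 0.044% of all genes, with Gbp2 at 159, 20.3 and 76.6 TPM against 15.9, 13.2, 11.3 and 8.7 TPM at day 0 (2.3 ± 0.58, adjusted p = 0.498). An unadjusted p under 0.05 was found for 11 members, without a share of all genes at that p. At day 6, 6 of 36 members were lower (6.37% of all genes) and 1 was higher (8.64%). The lower members were Irf1, Irf7, Ifih1, Ifit2, Oasl1 and Cmpk2, and the higher one was Oas2. Among the 32 members that passed the filter at day 0, 0 were higher, since Oas2 entered the test only through its day 6 level. Oasl1, which restrains translation of Irf7, had the largest fall of any member, from 25.2, 20.9, 16.4 and 21.5 TPM to 4.47, 2.54 and 2.22 TPM (-2.46 ± 0.24, adjusted p = 0.000619). Irf7 was at 13.8, 10.1 and 7.86 TPM against 39.6, 26.1, 14.7 and 28.6 TPM (-1.24 ± 0.32, adjusted p = 0.035). Neither overlapped with day 0. Isg15 (16.1, 12.8 and 17.3 TPM against 46.9, 14.9, 11.6 and 7.79 TPM) and Gbp2 (17.0, 20.1 and 14.2 TPM) overlapped with day 0, while Ifit1 (3.18, 2.75 and 2.75 TPM against 10.7, 3.43, 6.22 and 3.4 TPM) lay below it and Psmb9 (30.0, 23.1 and 27.5 TPM against 18.7, 11.1, 18.2 and 18.3 TPM) and Cxcl9 (1.03, 1.9 and 1.64 TPM against 0.1, 0.887, 0.369 and 0.302 TPM) above it, without a call. Without mouse 1, 3 members were higher and 2 lower, where 15.6% of all genes were called. Without any 1 of the other 6 mice between 1 and 5 were called (6.18% to 15.3% of all genes).

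Beside these falls, 8 colonocyte markers summed to 87.7, 36.7 and 40.3 TPM in the day 6 anus against 1453, 2207, 1342 and 4079.8 TPM at day 0, and all 7 tested were lower. Of the 6 lower members, Irf1, Irf7, Ifih1, Oasl1 and Cmpk2 were also lower in uninjured anus than in uninjured rectum, and Ifit2 was higher there. The part of the colonocyte transcripts in the falls was not tested. At day 9, 3 of 32 members were lower (3.63% of all genes): Oas1a, Oasl1 and Ifih1. Oas1a fell from 13.0, 12.7, 7.76 and 19.9 TPM to 0.761, 5.15 and 3.24 TPM (-1.93 ± 0.44, adjusted p = 0.0416), with no overlap. Isg15 (2.54, 15.3 and 5.01 TPM), Irf7 (4.61, 10.1 and 11.6 TPM), Ifit1 (1.82, 4.75 and 2.63 TPM), Gbp2 (6.1, 97.4 and 14.5 TPM) and Psmb9 (14.9, 54.2 and 17.0 TPM) were not called, and of these only Irf7 lay wholly below day 0. The count was 1 without mouse 1, 2, 4, 11 or 13, 2 without mouse 12 and 4 without mouse 3. In these fits 2.24% to 6.13% of all genes were called.

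At day 14, 5 of 39 members were higher in anus (2.26% of all genes): Zbp1, Mx1, Oas2, Iigp1 and Psmb9. Of the 32 that passed the filter at day 0, 3 were higher, and Mx1 and Oas2 entered the test only through their day 14 levels. Iigp1 had the largest called rise, to 9.21, 41.1 and 31.7 TPM from 6.05, 2.74, 4.09 and 2.96 TPM (2.33 ± 0.48, adjusted p = 0.0334), and Psmb9 was at 27.9, 62.6 and 61.7 TPM (1.5 ± 0.32, adjusted p = 0.0379). Both were above day 0 in every mouse. Gbp2 (23.9, 193 and 199 TPM, adjusted p = 0.0508) was too, without a call, and Ifit1 (10.7, 30.7 and 28.8 TPM), Isg15 (10.9, 33.6 and 30.3 TPM) and Irf7 (20.9, 33.4 and 30.3 TPM) overlapped with day 0. Without mouse 14, 20 of 40 were called (1.69% of all genes higher), and without mouse 1 the count was 7 (1.9%). Without any 1 of the other 5 mice it was 1 (0.609% to 1.85%). At day 20 limma called 0 of 34 members and 1.46% of all genes, with Gbp2 at 32.3, 247 and 13.2 TPM and Isg15 at 9.1, 37.8 and 6.11 TPM. An unadjusted p under 0.05 was found for 3 members, without a share of all genes at that p.

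The difference between anus and rectum in response was itself tested. At day 6 the response was lower in anus for 33 of 40 members and higher for 0 (6.16% of all genes lower, 15.4% higher), and the median gap was -1.55 beside 0.26 over all genes tested. The widest gaps were in Ifit3 (-3.59 ± 0.49, adjusted p = 0.000269), Ifit1 (-3.54 ± 0.5, adjusted p = 0.000376) and Isg15 (-3.32 ± 0.65, adjusted p = 0.00308), followed by Oasl1 (-2.85 ± 0.27). Irf7 (-2.46 ± 0.37) and Gbp2 (-2.41 ± 0.38) were also called, and Psmb9 (-0.73 ± 0.38, adjusted p = 0.196) and Cxcl9 (-0.14 ± 0.31, adjusted p = 0.786) were not. With the mouse as a block Stat2 (adjusted p = 0.0796) and Mx1 (0.0661) were not called. At day 9 the response was lower in anus for 36 of 40 members (15.6% of all genes lower), led by Isg15 (-5.42 ± 1.22, adjusted p = 0.00618), Cxcl10 (-5.28 ± 1.57, adjusted p = 0.0284), Cxcl9 (-4.16 ± 1.12, adjusted p = 0.0176) and Ifit1 (-4.0 ± 1.03, adjusted p = 0.0135). Cxcl9 was below 1 TPM in every day 0 sample of both sections, so it entered the test only through its day 9 levels. At day 0, 29 members had reached the filter in rectum and 32 in anus. The members called in the 2 interactions were not split by this. With the block Irf1, Rsad2 and Psmb9 were called lower as well. Without the block the count was 9 without mouse 13, 16 without mouse 2 and 22 without mouse 3. In these fits 14.4%, 14.4% and 15.9% of all genes were called.

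**Figure D3:**
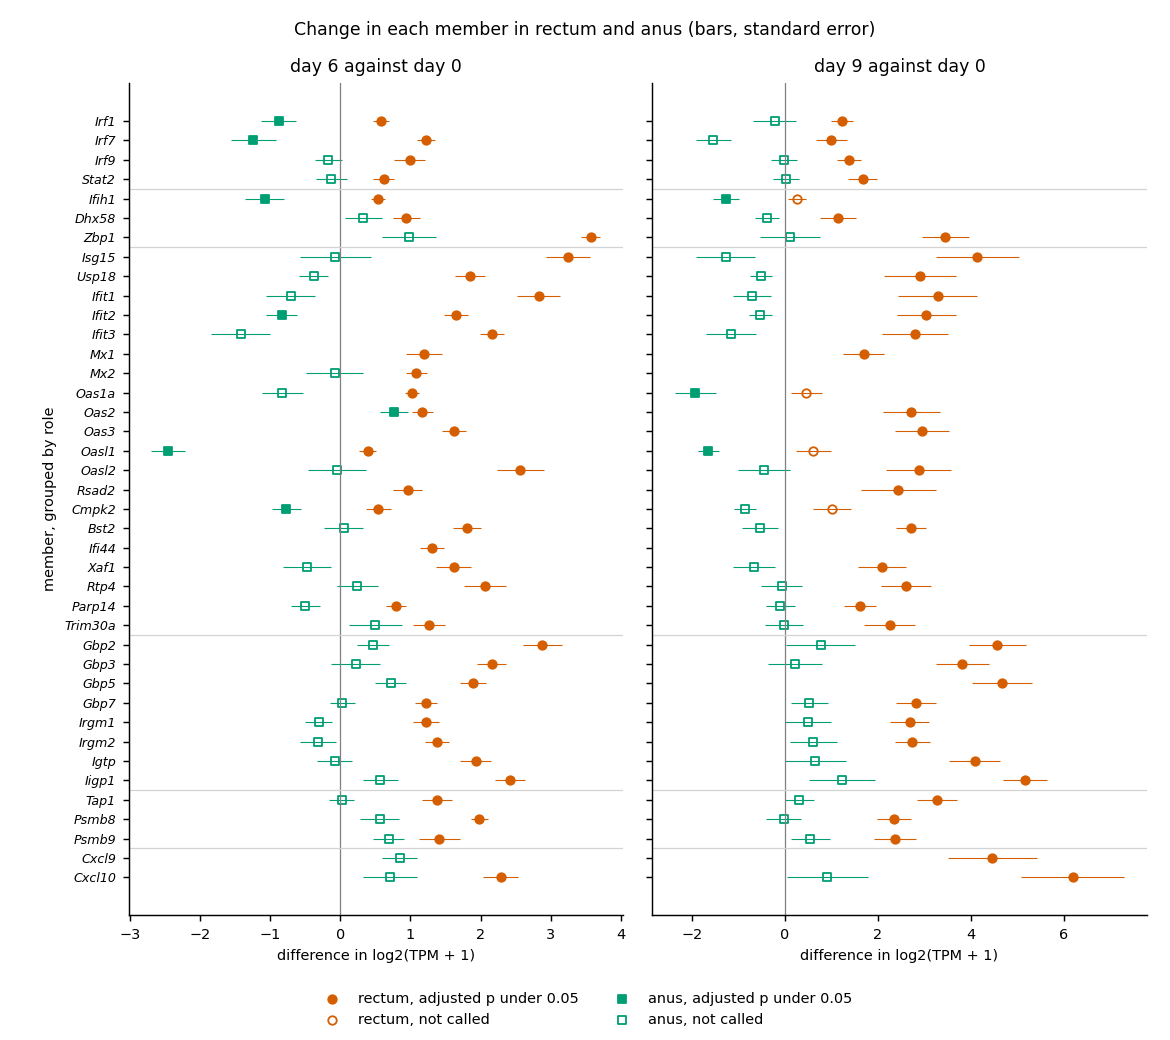
Difference in log2(TPM + 1) from day 0 for each member tested, in rectum (circles) and anus (squares), at day 6 (left) and day 9 (right), with bars of 1 standard error. Filled symbols have an adjusted p under 0.05. At day 6 the 39 circles lie between 0.39 and 3.57, and the squares lie between -2.46 and 0.98.

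In the squamous neo-epithelium of days 9 to 20, few members were called against rectum and most were higher than in anus. Against rectum, with day as a covariate, 2 of 40 members were lower and 0 higher, where 21.3% of all genes were lower. These were Oas1a, at 5.58 to 64.5 TPM (median 28.4) in 9 neo-epithelial samples and 29.9 to 98.9 TPM (median 68.5) in 9 rectal samples (-1.09 ± 0.32, adjusted p = 0.012), and Ifih1, at 4.37 to 32.3 TPM (median 20.3) and 26.1 to 49.3 TPM (median 36.4) (-1.08 ± 0.26, adjusted p = 0.00281). The ranges overlapped in both. The median difference over the 40 was -0.26. With the mouse as a block, Irf1, Irf7, Zbp1, Cmpk2 and Psmb8 were lower as well, 7 in all, beside 22.6% of all genes lower. A member not called is not shown to be equal: for Isg15 the difference was -0.28 ± 0.79, for Ifit1 -0.22 ± 0.81 and for Gbp2 -0.21 ± 0.83.

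Against anus 27 of 40 members were higher in neo-epithelium and 0 lower (38.1% of all genes higher), with a median of 1.41 beside 0.17 over all genes. All 4 regulators, all 3 sensors and both chemokines were higher. Beside this, 7 of 8 colonocyte, 5 of 6 neutrophil, 5 of 8 macrophage and 3 of 4 NK and cytotoxic markers tested were higher in neo-epithelium, and all 4 skeletal muscle markers were lower. Colonocyte sums were 33.1 to 6126 TPM in neo-epithelium and 38.4 to 1177 TPM in anus. At day 9 neutrophil sums were 17396, 6839 and 16917 TPM in neo-epithelium and 1092, 3098 and 910.1 TPM in anus. The part of these markers in the difference was not tested. Oas1a had an anal range of 0.761 to 15.3 TPM (median 7.82), a difference of 2.16 ± 0.3 and an adjusted p of 1.22e-05. Cxcl10 differed by 2.24 ± 0.91 with a far wider spread (2.31 to 333 TPM, median 68.1, in neo-epithelium and 0.373 to 61.1 TPM, median 3.33, in anus, adjusted p = 0.0433). Irf7 was at 11.2 to 131 TPM (median 56.2) in neo-epithelium and 4.61 to 33.4 TPM (median 20.4) in anus (1.86 ± 0.27, adjusted p = 2.47e-05). Isg15 was at 3.57 to 181 TPM (median 68.5) and 2.54 to 37.8 TPM (median 10.9) (1.79 ± 0.65, adjusted p = 0.026). These ranges overlapped. Each range pools mice of different days, and the part of day, mouse and tissue make-up in the overlap was not tested. With the mouse as a block 38 of 40 were higher, where 36.9% of all genes were. Among those gained were Gbp2 (18.4 to 1158 TPM, median 219, against 6.1 to 247 TPM, median 32.3, adjusted p = 0.000334 with the block and 0.0512 without), Ifit1 (1.24 to 205 TPM, median 32.0, against 1.82 to 50.3 TPM, median 5.27, adjusted p = 0.00291 and 0.0646) and Igtp. Without any 1 of mice 13 to 16 the count without the block was 17 to 19, where 32.4% to 36.0% of all genes were higher.

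Between days 9 and 20 in neo-epithelium 1 of 40 members was called, a higher one, where 10.1% of all genes were higher. Ifih1 was higher, at 20.3, 32.3 and 13.9 TPM at day 20 against 4.37, 10.3 and 9.59 TPM at day 9 (1.35 ± 0.39, adjusted p = 0.0464), without overlap. The call was lost without any 1 mouse other than mouse 19. Colonocyte markers in these samples summed to 5540.2, 2782 and 6126 TPM at day 20 and 560.1, 33.1 and 146 TPM at day 9, and their part in the rise was not tested. At day 14, in mice 14, 15 and 16, neo-epithelial Gbp2 was at 219, 1158 and 823 TPM and Ifit3 at 28, 301 and 211 TPM. The values of mouse 15 were the highest of each gene in the 66 samples.

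From day 9 on, one end of the order of the mice was shared across sections for most members. At day 9 mouse 12 had the highest value of its day in mid-colon, rectum and anus for 29 of the 32 members with a mean of at least 1 TPM in each section, where some mouse was highest in all 3 sections for 16.0% of all genes so measured. Mouse 11 was the lowest of its day for 40 of 40 members in rectum and 40 of 40 in neo-epithelium, but for only 8 in mid-colon, where mouse 13 was lowest for 32. One mouse was lowest in the 3 sections for only 3 of 32 members at day 9 (18.5% of all genes). At day 14 mouse 14 was lowest in the 3 sections for 35 of 39 members (some mouse was for 21.2% of all genes), while one mouse was highest in them for only 10 of 39 (18.3%). At day 20 mouse 18 was highest in all 4 sections for 37 of 39 members, against 8.82% of all genes for any mouse. Days 3 and 6 had no such order over all 3 sections: the same mouse was highest in them for 3 of 32 members on each day, beside 25.2% and 15.3% of all genes. Mid-colon and rectum did share an order at day 3. Mouse 7 was highest there for 38 and 27 of 40 members, and mouse 5 lowest for 38 and 21. In anus, mouse 5 was highest for 29.

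In the mean over the 40 members on the log2(TPM + 1) scale, mouse 18 was at 4.26 in mid-colon, 5.67 in rectum, 4.5 in anus and 5.98 in neo-epithelium. Mouse 19, sampled on the same day, was at 2.62, 2.96, 2.41 and 2.8 in these sections, beside 2.4 to 3.09 in the 12 samples of day 0. The 3 rectal samples of day 6 were at 4.11, 4.2 and 4.15. Neo-epithelium of mouse 14 was at 4.81, while its mid-colon, rectum and anus were at 3.06, 3.71 and 3.16. The share of mitochondrial transcripts differed between these mice too, at 9.19% in mid-colon and 17.2% in rectum of mouse 18 and 28.5% and 20.6% in those of mouse 19. In mid-colon it was 25.4% in mouse 14 against 18.1% and 16.9% in mice 15 and 16, and its part in the member levels was not tested. The spread of the member mean within a day was small at day 6 in rectum and large from day 9 on. In mid-colon at day 3 the mean already ran from 2.45 to 3.63.

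**Figure D4:**
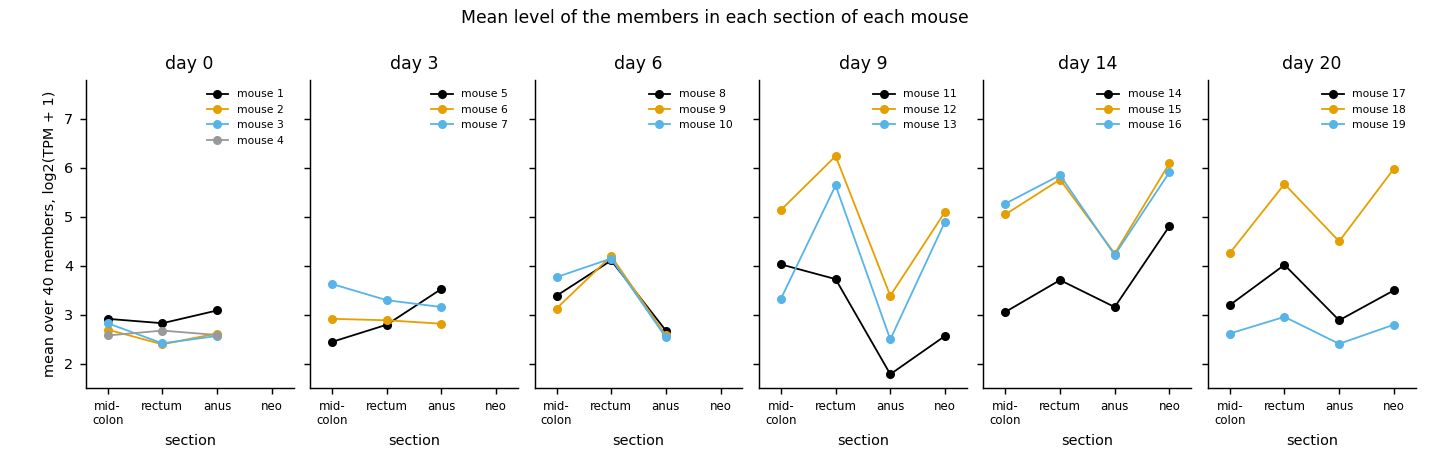
Mean level of the 40 members, log2(TPM + 1), in each section of each mouse, with 1 panel per day and 1 line per mouse (neo, neo-epithelium). At day 20 the line of mouse 18 lies above those of mice 17 and 19 in all 4 sections, and at day 6 the 3 lines meet in the rectum at 4.11 to 4.2.

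Of the interferon genes looked up, most were listed at 0 in most samples, and a 0 in this table does not show that a gene is silent. Ifna1, Ifna2, Ifna4 and Ifna5 were listed at 0 in all 66 samples, Ifnb1 in 61, Ifnl3 in 62 and Ifnl2 in 55. Ifnk was listed at 0 in 55 samples. Ifne, a type I interferon of squamous and reproductive epithelia, was listed at 0 in 47 samples and was found mainly in neo-epithelium, at 0.719 to 2.05 TPM in all 9 samples, and in the anus of days 9 to 20. It was higher in neo-epithelium than in rectum (1.18 ± 0.12, adjusted p = 6.76e-07), where it was listed at 0 in all but 1 of the 9 samples of these days and entered the test only through neo-epithelium, and than in anus (0.48 ± 0.16, adjusted p = 0.0186).

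Interferon gamma (Ifng) was listed at 0 or at most 0.136 TPM in every rectal sample of days 0, 3 and 6. The day 6 rectum had 0, 0.0466 and 0 TPM while all 39 tested members were up. At day 9 rectal Ifng was at 0.246, 31.7 and 22.7 TPM in mice 11, 12 and 13, at day 14 at 0.0814, 3.38 and 9.54 TPM in mice 14, 15 and 16, and at day 20 at 0.0509, 3.87 and 0 TPM in mice 17, 18 and 19. Mice 11, 14 and 19, which had the lowest rectal member means of their days, had at most 0.246 TPM, and so did mouse 17. Other sections of day 9 did not keep this order throughout. Day 9 mid-colon had Ifng of 0.0498, 1.9 and 0.45 TPM in mice 11 to 13 and member means of 4.03, 5.14 and 3.33. Day 9 neo-epithelium had 0.116, 3.69 and 17.1 TPM and means of 2.57, 5.1 and 4.9. Mice 14 and 19 had the lowest member mean of their days in every section, and no mouse of their day had less Ifng there. In the day 9 rectum the summed markers of mice 11, 12 and 13 were 13698, 13860.0 and 11970.0 TPM for neutrophils, 987, 1154 and 1219.9 TPM for macrophages, 20.2, 24.1 and 27.9 TPM for T cells, 16.7, 52.9 and 23.0 TPM for NK and cytotoxic cells and 22.4, 50.3 and 54.8 TPM for plasmacytoid dendritic cells. The pathway gene Irf8 was at 20.2, 47.8 and 50.2 TPM in these samples, close to the plasmacytoid dendritic cell sums. Those sums therefore cannot be read as a measure of the cells alone. Mouse 11 was the lowest of its day in 4 of the 5 marker lists, though not in the neutrophil list. At day 14 mouse 14 was the lowest in all 5, with 143.9 TPM against 486 and 536 TPM for macrophages, 9.54 against 44.9 and 30.9 TPM for T cells, and 959.9 against 2277 and 5114 TPM for neutrophils. At day 20 mouse 19 was the lowest in all 5 too, with 4.98 TPM of T cell markers against 35.3 and 29.4 TPM. Ifng passed the filter in none of the comparisons with day 0, so it was not tested there, and its part in the members' levels was not tested.

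**Figure D5:**
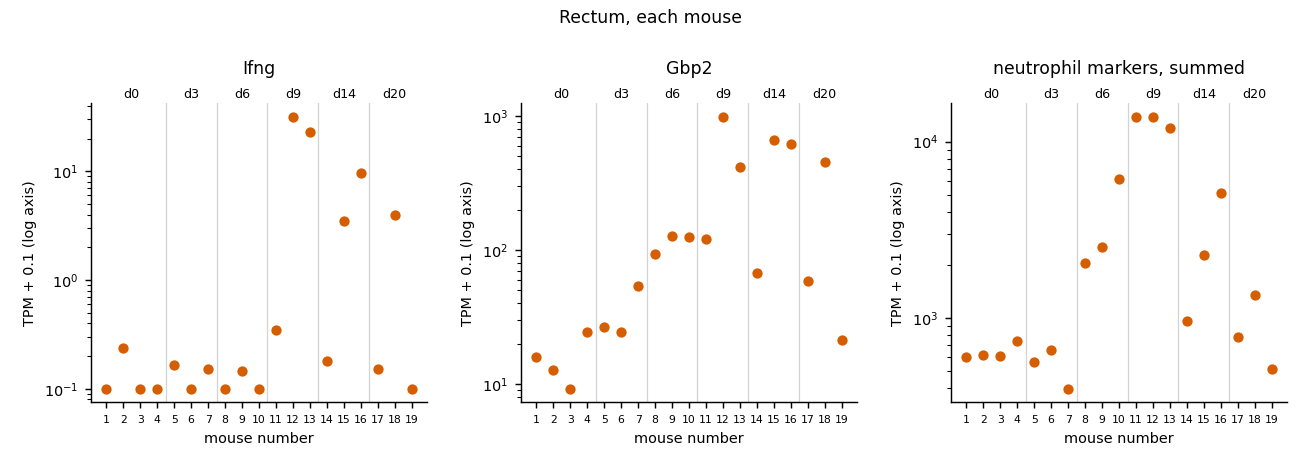
Rectal TPM plus 0.1 on log axes for Ifng, Gbp2 and the sum of 6 neutrophil markers, with 1 point per mouse in order of day (d). Ifng is at or below 0.246 TPM in mice 11, 14, 17 and 19, which have the lowest Gbp2 of their days apart from mouse 17. The neutrophil sum is lowest of its day in mice 14 (959.9 TPM) and 19 (517 TPM), and is 13698 TPM in mouse 11.

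Of the 34 other pathway genes listed beside the members, 7 of 22 tested were higher and 2 lower in the day 6 rectum (11.5% and 37.2% of all genes), and 14 of 23 were higher and 4 lower at day 9 (33.5% and 20.0% of all genes). The pathway counts were not split by whether a gene had reached the filter at day 0. The feedback inhibitor Socs1 rose by 1.35 ± 0.2 at day 6 and 4.05 ± 0.55 at day 9. It was at 0.957, 1.07, 0.902 and 0.743 TPM at day 0, so it entered both tests only through its later levels. Receptors moved apart at day 9: Ifnar2 rose by 2.13 ± 0.18, while the gamma receptor chains Ifngr1 (-0.8 ± 0.11) and Ifngr2 (-1.23 ± 0.13) fell. Ifngr1 was at 327, 310.4, 320.5 and 326 TPM at day 0 and 196, 157 and 202 TPM at day 9, without overlap. In the same samples 6 of 8 colonocyte markers were lower and 2 higher, and their sum was 5250.3 to 6404 TPM against 12597 to 14091 TPM at day 0, and their part in the receptor falls was not tested. In mid-colon 5 of 22 pathway genes were higher at day 6 (4.93% of all genes), and 9 were higher and 3 lower at day 9 (26.5% and 17.0%). Against anus, 20 of 25 were higher in neo-epithelium and 0 lower (38.1% of all genes higher).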

How the data were processed

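The authors deposited 1 table of transcript abundances in TPM for 66 samples. CASAVA, kallisto and mm10 are named in the submitters' processing notes; their versions and the transcript index are not given in the sources used here. No read counts were used. The deposited columns sum to 1027330.2 to 1062208.5 because 1318 transcripts are listed again. These repeats and 37344 entries without values were dropped, leaving 88198 transcripts, whose TPM were summed to 30452 genes (142 transcripts for the 40 members). Samples were grouped by section and day from the labels. RNA libraries were stranded, single-end, 75 bp.

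A gene was tested where the number of samples at 1 TPM or above was no smaller than the smallest group, using limma 3.58.1 in R 4.3.3 on log2(TPM + 1), with trended moderated variances and Benjamini-Hochberg adjustment over all genes tested, after the code was tested on simulated data. Differences on this scale understate the change of low genes. A call is an adjusted p under 0.05. Shares of all genes are given for calls only, so counts at an unadjusted p have no such share beside them. Alternatives were a pseudocount of 0.1, no filter, trimmed mean (TMM) factors, the mouse as a block, and each mouse left out. Mouse numbers are the same animal across sections, so they pair samples; deviations of same-mouse samples from group means correlated at a mean r of 0.0346 to 0.269 over 8 pairs of sections. Python 3.11.15, numpy 2.4.6, pandas 2.3.3 and matplotlib 3.10.9 were used.

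The members and lists were chosen with earlier results of these data known. Values of every sample are given for the largest called rise and fall with a mean of at least 5 TPM in either group and for 6 leads (Isg15, Irf7, Ifit1, Gbp2, Psmb9, Cxcl9); other members are named as called or after their values were seen. The ranking of mice across sections (mean of at least 1 TPM in each) was added after the data were seen. One pathway gene is not reported here.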

Additional observations from a re-analysis of the deposited data

Results flagged for a closer look

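The highest or lowest of the 4 uninjured mice stood apart from the other 3 in 11 of 120 groups of 4 tested, by a gap past the 95% critical value of Dixon's ratio, which chance passes in about 1 in 20 groups. In anus, mouse 1 had 4.35 TPM of Dhx58 (others 1.99 to 2.39) and 31.5 TPM of Ifit3 (others 8.6 to 9.13). Mouse 2 had 0.34 TPM of Rsad2 (others 0.691 to 0.707), 2.43 TPM of Ifi44 (others 0.407 to 0.677) and 11.1 TPM of Psmb9 (others 18.2 to 18.7), and mouse 4 had 4.96 TPM of Parp14 (others 3.09 to 3.31). In rectum, mouse 1 had 21.3 TPM of Irf9 (others 11.1 to 11.7), 19.2 TPM of Oasl2 (others 6.27 to 7.41) and 9.15 TPM of Rtp4 (others 2.97 to 3.8). In mid-colon, mouse 4 had 2.43 TPM of Dhx58 (others 5.23 to 5.8) and 1.51 TPM of Iigp1 (others 0.48 to 0.646).

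The response to DSS differed between anus and rectum by the limma interaction term, in 33 members at day 6 and 36 at day 9, all with the lower response in anus. At day 6 the difference in response was -3.32 for Isg15, -2.46 for Irf7, -3.54 for Ifit1, -2.41 for Gbp2 and -3.59 for Ifit3. At day 9 it was -5.42 for Isg15, -2.54 for Irf7, -4.0 for Ifit1, -3.8 for Gbp2 and -4.16 for Cxcl9. Both comparisons use the same uninjured mice, and Cxcl9 entered the day 9 test only through its day 9 levels.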

How the results depend on the processing

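Of 24 counts of called members, 20 stayed within 1.5 times with TMM factors, 16 without a filter, 23 with a pseudocount of 0.1, and 6 of the 8 with a mouse block. TMM factors gave 1 for mid-colon at day 3, 16 at day 14, 1 at day 20, and 2 for anus at day 14. Without a filter, more genes were tested, and the counts were 7 and 0 for mid-colon at days 6 and 14, 19 and 0 for rectum at days 14 and 20, 2, 1 and 1 for anus at days 6, 9 and 14, and 0 for neo-epithelium at day 20 against day 9. That last count was also 0 with a pseudocount of 0.1. The mouse block gave 7 for neo-epithelium against rectum and 6 for rectum minus mid-colon at day 6. Without mouse 1, anus at day 6 had 5 calls, 3 higher and 2 lower, against 1 higher and 6 lower with all mice; the cause of these changes was not tested.

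Leaving out 1 mouse gave, in mid-colon, 0 to 0 calls at day 3, 4 to 13 at day 6, 18 to 28 at day 9, 0 to 37 at day 14 and 0 to 5 at day 20. In rectum it gave 3 to 6, 37 to 39, 29 to 40, 7 to 40 and 0 to 35. In anus it gave 0 to 1, 1 to 5, 1 to 4, 1 to 20 and 0 to 0. For anus against rectum at day 0 it gave 13 to 16, for rectum against mid-colon 0 to 1, for neo-epithelium against rectum 2 to 3, against anus 17 to 33 and between days 0 to 1. For rectum minus mid-colon it gave 0 to 1 at day 6 and 0 to 13 at day 9, and for anus minus rectum 27 to 33 and 9 to 39. The share of all genes called moved with the mouse left out too. In rectum at day 14, for example, 1.33% to 24.0% of all genes were higher.

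No called member changed sign under these settings. Calls lost were 25 of 287 with TMM factors, which moved the median member difference by -0.31 to 0.24 (log2) over the comparisons, by 0.24 in rectum at day 6 and -0.18 at day 9. The depth is unknown, and 3 or 4 mice a group limit the precision.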
